A study of Mus musculus with 12 samples.

Results

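Translation initiation factors and release factors are the soluble proteins that load a ribosome onto an mRNA and take it off again. The eIF2 complex brings the initiator tRNA to the small ribosomal subunit and is recharged with GTP by its exchange factor eIF2B, eIF3 is a scaffold that holds the pre-initiation complex together, and the eIF4 factors bind the cap and unwind the leader. eRF1 and eRF3 end translation at the stop codon, and ABCE1 splits the ribosome afterwards. Several of these proteins are controlled by nutrient signalling in liver, through phosphorylation of eIF2alpha and through the eIF4E-binding proteins, which mTORC1 phosphorylates.

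The 42 genes were chosen by name among the 11587 genes of the table and each was found, as 94 of 26260 transcripts. They were 6 genes of the eIF1 and eIF5 group (start codon selection and subunit joining), 3 eIF2 subunits, 5 eIF2B subunits, 13 eIF3 subunits, 8 eIF4 factors, 2 eIF4E-binding proteins, 3 release and recycling factors, and 2 genes on the elongation side, Eif5a and Eef2k. Ribosome footprints and total RNA were sequenced from the livers of 3 Maf1 KO and 3 wild-type (WT) C57BL/6 mice, 12 libraries in all. MAF1 is a repressor of RNA polymerase III and was deleted in the KO mice; its own values are not analysed here. By their labels, mice of both genotypes were 12 to 14 weeks old, were killed at 9 PM and were refed, whereas the methods describe feeding ad libitum. The mice were WT1, WT2 and WT3 and KO1, KO2 and KO4, and values are given in that order.

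A score is the log2 of a transcript's tag count after normalization by the authors, including a correction by added Drosophila cell material. Scores were averaged over the transcripts of a gene, and translation efficiency (TE) was taken per mouse, by subtracting its total RNA score from its footprint score. Scores and differences are therefore in log2 units. The deposited footprint scores of KO1 and WT3 stood apart from the other libraries, with library medians of 7.17 and 8.02 against 7.37 to 7.57 in the other 4. For this reason each result is also given with libraries centred, that is, after subtraction of each library's median over all genes (for TE, each mouse's median TE). Centring removes any change shared by all genes, which the Drosophila material was added to retain. In whole liver, fewer cells of a type and less RNA per cell cannot be told apart. All 12 hepatocyte markers examined were measured, and 10 of them were higher in KO total RNA and 2 in KO footprints, with overlapping sums. All 12 Kupffer cell or macrophage markers were higher in KO total RNA, with summed scores of 14.56 to 15.11 against 14.25 to 14.33 in WT, and 1 of them passed the test. In total RNA, 7 of 7 stellate cell or fibroblast markers were higher in KO too (median difference 0.41). So were the 2 measured of 5 cholangiocyte markers, the 1 measured of 6 lymphocyte markers and 7 of 8 sinusoidal endothelial markers. The 2 measured of 3 erythroid markers were lower in KO (median difference -0.42). Sums of the stellate, endothelial and erythroid lists overlapped. The summed scores of the cholangiocyte markers (9.31 to 9.62 in WT, 9.65 to 9.83 in KO) and the lymphocyte marker (7.88 to 8.09 and 8.26 to 8.60) did not overlap. These sums are as deposited, and KO1 had the highest library median in total RNA (9.34, against 8.75 to 9.04 in the others). With the library medians subtracted, the cholangiocyte sum of KO1 lay below those of all WT mice. The lymphocyte marker was then nearly equal in KO1 and WT3. In footprints all 12 Kupffer cell or macrophage markers but only 3 of 7 stellate markers were higher in KO (median differences 0.36 and -0.10). The summed footprint scores overlapped between genotypes in every list, with 13.27 to 14.54 in WT and 13.64 to 14.51 in KO for the Kupffer markers. Krt19, Krt7, Epcam, Cd3e and Cd79a were not listed. The part of these markers in the results below was not tested. The mice are separate samples of a genotype by their labels.

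To show what the members share in sequence, the annotated starts were examined first. A TOP motif is a run of pyrimidines that begins with C at the cap of the mRNA and marks the transcripts of ribosomal proteins and several other translation factors. As a proxy, a C followed by at least 5 further C or T was searched on the transcript strand, beginning within 10 bases of a RefSeq start (GRCm38.p6), and 9 of the 33 members with an entry held one (27.3%, against 21.9% of 27025 genes). Within 2 bases of the start there were 4 of 33 (12.1%, against 6.73% of genes). The 25-base windows from 10 bases before the start are printed with the run in capitals, as far as it lies in the window, for members that recur in the results, followed by Eif3m and Eif4a1, which hold no such run. The run of Eif4b begins 10 bases after the start and has 7 bases, of which the window holds 5. A match is a description of these letters and not a mapped cap site.
Eif3f (chromosome 7): tctaggCTCTCTCTCTTTCTCggca
Eif2s3x (chromosome X): gagcattttCCTTTTCTCTCCgagc
Eif2b5 (chromosome 16): CTCTTTCTCTCCCTgcaactacacc
Eif4g1 (chromosome 16): gcgcagctccgCCCTCTgcgccggt
Eif4b (chromosome 15): tcccgtcggacgccgcgccaCCCCC
Eif3m (chromosome 2): cggtcggcgtgtttctggatcggag
Eif4a1 (chromosome 11): gtaacgtcacgtcgagttgcagagc

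The sequence around the start codon was read from the NCBIM37 coding transcripts, the build of the files. A purine 3 bases before the start codon and a G directly after it are the 2 positions known to matter most for start codon recognition. Both were present in 19 of 42 members, against 45.5% of 10321 genes, and 36 had the purine, against 85.8%. Neither was present in 4 of 42 members, Eif1, Eif1b, Eif2b4 and Eif3b, against 6.74% of genes, so a lack of both was not rarer among the members. The contexts of these and of Eif4g2, whose annotated start codon is GTG, as in 3 of the 10321 genes (0.029%), are shown from 6 bases before the start codon to the base after it, with the 2 positions in capitals. Eif3f is added as a member that has both.
Eif1 (chr11:100181199-100183410, plus strand): tatCgtatgT
Eif1b (chr9:120401724-120404445, plus strand): tgtCgcatgT
Eif2b4 (chr5:31489931-31495803, minus strand): ggcTagatgC
Eif3b (chr5:140895259-140919314, plus strand): gggCccatgC
Eif4g2 (chr7:118211499-118226544, minus strand): gccAaagtgG
Eif3f (chr7:116077931-116086465, plus strand): ggcAagatgG

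In WT liver most of these genes were well above the median gene. In total RNA 40 of 42 lay above it and 10 above the 90th percentile, and in footprints 40 and 4. The scores behaved as tag counts per coding length in 8 of the 12 libraries (5 of total RNA and 3 of footprints). There, 2 to the power of the score times the coding length fell near whole steps, with the step size searched for. The reading was weakest in WT1 total RNA, with 75.7% of low transcripts near a step with the coding length and 68.8% without it. In the other footprint libraries (WT2, KO1 and KO2) only 36.7 to 40.9% lay near a step, against 30% for evenly spread values. Levels of different genes are set side by side on this basis. In these 8 libraries the tags of a member were estimated from its gene score and its longest coding length. The estimates ran from about 105 (Eif1ax) to 30206 (Eif4g1) in total RNA and from 81.5 to 8674 (the same genes) in footprints. That of Eif1ax is not a count of its tags, since its score averages 2 transcripts with WT total RNA scores of 11.64 and 6.36. No counting error is therefore read from it. Apart from Eif1ax, the lowest estimate in the 3 footprint libraries read was 173.7 tags, that of Eif4ebp2 in KO4.

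The highest level was that of Eif5a, which relieves ribosome stalling, with total RNA and footprint scores of 13.55 ± 0.32 and 13.59 ± 0.37 (SD, n = 3). The cap-complex helicase Eif4a1 (13.30 ± 0.12 and 12.42 ± 0.38) and Eif4h, which stimulates it (12.49 ± 0.16 and 12.11 ± 0.38), came next in footprints. The spreads of these deposited footprint scores, which include shifts shared by a library, overlap only between Eif4a1 and Eif4h. After centring these 2 did not overlap (4.80 ± 0.09 and 4.49 ± 0.03). Lowest were Eef2k, the kinase that inhibits elongation factor 2 (footprints 6.82 ± 0.38), and Eif4g3, a relative of the scaffold Eif4g1 (7.22 ± 0.29). Their spreads overlap as deposited and centred, but Eef2k was the lower in each WT mouse. The members thus covered 6.77 log2 units in footprints. By contrast, the 13 eIF3 subunits, which enter 1 complex, lay within 1.29 units in footprints by the mean over transcripts. They ran from Eif3a (9.76 ± 0.52) to Eif3k (11.05 ± 0.32), and lay within 1.39 units in total RNA. With the most abundant transcript the footprint range was wider, from Eif3j (10.06) to Eif3i (11.99). By the mean, the smaller groups of eIF2B and of release and recycling factors spanned less in footprints, so closeness there was not particular to eIF3. In total RNA the eIF2B subunits spanned 1.47 units, more than eIF3, and the release and recycling factors 0.79. The eIF2B subunits (8.29 to 9.49 in footprints) lay below the eIF2 subunits (9.17 to 10.76) except for an overlap at Eif2s3x.

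**Figure D1:**
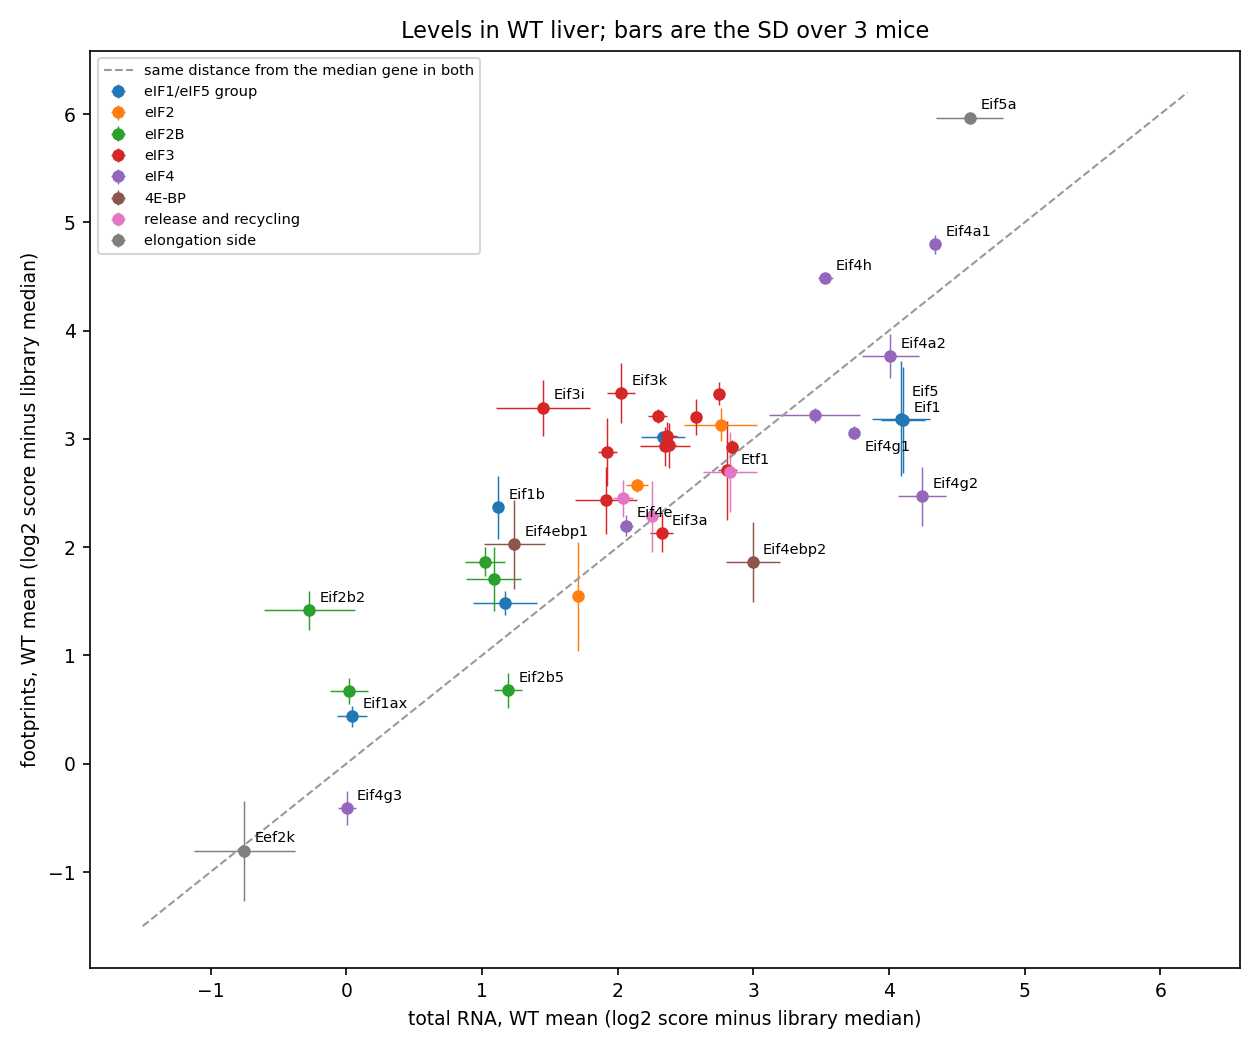
Footprint level against total RNA level of the 42 genes in WT liver, both as the log2 score minus the library median, with the mean and SD of 3 mice. Eif5a is highest on both axes, the eIF3 subunits lie close together, and Eif4g2, Eif1, Eif5 and Eif4ebp2 lie below the dashed line of equal distance from the median gene.

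Translation efficiency in WT liver differed by 3.61 log2 units between members, more than the spread between mice. The lowest was Eif4g2, a relative of eIF4G that lacks the eIF4E-binding part, with a centred TE of -1.92 ± 0.16 (4.90th percentile of all genes). Eif4ebp2 (-1.28 ± 0.48), Eif1 (-1.08 ± 0.43), Eif5 (-1.05 ± 0.38) and Eif4g1 (-0.83 ± 0.10) followed. With the most abundant transcript Eif4g3 was the second lowest, at -1.65 ± 0.23, against -0.56 ± 0.16 by the mean over its transcripts. The highest by the mean over transcripts was Eif3i, at 1.69 ± 0.58, but its 2 transcripts differed by 3.77 units in total RNA and the more abundant one alone had 0.89 ± 0.26. Eif2b2 (1.54 ± 0.32), Eif3k (1.25 ± 0.17), Eif5a (1.22 ± 0.21) and Eif1b (1.10 ± 0.29) were also high and each had a similar value with the most abundant transcript (1.56, 1.28, 1.24 and 1.12). Across 10851 genes, which are not independent replicates, TE averaged over the 6 mice of both genotypes was lower in genes of longer coding length (Spearman rho = -0.40). Eif4g1 and Eif4g3 have the longest coding sequences of the members. The 2 genes for eIF1, the factor that guards start codon choice, share 81.3% of their coding bases and both lack the favoured bases shown above. Yet Eif1 had 7.92-fold more total RNA than Eif1b, 1.75-fold more footprints, and therefore a TE lower by 2.18 ± 0.15 units, a gap seen in each of the 6 mice. No window of 30 bases was shared between these 2 coding sequences. The helicases Eif4a1 and Eif4a2 (78.1% identical) differed less, with 1.26-fold and 2.04-fold ratios in total RNA and footprints. By the mean over transcripts Eif4g1 exceeded Eif4g3 13.3-fold and 11.1-fold. With the most abundant transcripts these 2 genes scored 12.87 and 9.78 in total RNA and 10.88 and 6.93 in footprints. The wider gap was then in footprints. Eif4ebp2 exceeded Eif4ebp1 3.38-fold in total RNA, while their footprints were alike within the spread (0.89-fold; log2 -0.17 ± 0.29).

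The first comparison asked whether loss of Maf1 changed the mRNA levels of these factors. None of the 42 members passed in total RNA (adjusted p under 0.05 in limma, Benjamini-Hochberg over all genes), against 32 of 11587 genes (0.276%), and none had an unadjusted p under 0.05, against 3.61% of genes. As deposited the KO mice lay below all WT mice in 1 member (Eif1, against 1.42% of genes) and above them in 1 (Eif4g3, against 4.07%). The median difference of the members was -0.05 and that of all genes 0.00, and 30 of 42 lay below 0, against 49.6% of genes. Group medians were -0.02 for eIF3, -0.05 for eIF2B, -0.05 for eIF4, -0.08 for the release and recycling factors and -0.11 for eIF2. Single differences ran from -0.32 ± 0.25 (SE) for the eIF3 subunit Eif3e to 0.29 ± 0.27 for Eif4g3. With libraries centred, again none passed, against 2 genes (0.0173%), and Eif3e alone had an unadjusted limma p under 0.05 (0.017, adjusted p = 0.491), against 8.48% of genes. Its total RNA was 2.76, 2.89 and 2.77 in WT and 2.32, 2.45 and 2.63 in KO, with no overlap between genotypes. Eif4g3 was the only member whose KO mice all lay above the WT mice, with 0.01, 0.07 and -0.07 in WT and 0.08, 0.36 and 0.39 in KO (1 of 42, against 6.92% of genes), 32 of 42 differences lay below 0, against 53.4% of genes, and 5 members had no overlap with KO below (Eif2s3x, Eif2b5, Eif3e, Eif3m and Eif4a2), against 7.03%. As deposited, the direction in total RNA rested on single mice, since 13 of 42 lay below 0 without KO2 (median 0.07) and 39 of 42 without KO1 (median -0.20). Without KO1 and WT3 the median was -0.26 against -0.23 for all genes. After quantile normalization only 22 of 42 members lay below 0, and the medians were -0.0138 for the members and -0.01 for all genes.

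The second comparison asked how many ribosomes were found on these mRNAs. Footprints of the members were mostly lower in KO than in WT livers, but 0 of 42 passed in limma, against 10 of 11587 genes (0.0863%), and 2 had an unadjusted p under 0.05 (Eif3e and Eif3f), against 2.49% of genes. As deposited, 40 of 42 differences lay below 0, against 78.3% of all genes, with medians of -0.31 for the members and -0.18 for all genes. This direction rested on KO1 and WT3. Without WT3 alone the member median was -0.09, without KO1 alone it was -0.19, and without both mice 18 of 42 lay below 0, and the medians were 0.03 for the members and 0.16 for all genes. Below the median of all genes lay 31 of 42 members with all mice and 31 without these 2, of which 28 were the same genes. This count was 30 to 33 when any 1 mouse was left out, 28 after quantile normalization and 27 with the replicate number as a block. The medians after quantile normalization were -0.065 for the members and 0.002 for all genes. With libraries centred the member median was -0.12 against 0.01 for all genes, 31 of 42 lay below 0, against 48.8% of genes, 0 members passed, against 0.0% of genes, and 4 had an unadjusted limma p under 0.05 (Eif3f, Eif3m, Eif4a2 and Eif4b), against 4.0% of genes. After centring, the KO mice lay below all WT mice in 9 of 42 members (21.4%, against 4.26% of genes) and above them in 1 (Eif6, against 4.83% of genes). As deposited these counts were 6 (against 5.27%) and 0 (against 0.423%), and Eif3f, Eif3m, Eif4b and Eif4e were in both sets of genes that lay below.

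The groups differed in how far they lay from the median gene. Each of the 13 eIF3 subunits lay below the median of all genes in footprints, with a group median of -0.41 as deposited and -0.22 centred. Without KO1 and WT3 the count was 13 of 13 as well, while the deposited group median was -0.06 and the centred one -0.20. The count was 11 to 13 when any 1 mouse was left out and 9 with the replicate block. For eIF4 the group medians were -0.37 and -0.18, for the release and recycling factors -0.34 and -0.15, for eIF2B -0.32 and -0.13, for eIF2 -0.26 and -0.07, and for the eIF1 and eIF5 group -0.18 and 0.01. The 80 cytoplasmic ribosomal protein genes had -0.70 and -0.51, 6 elongation factors -0.69 and -0.50, and 20 cytosolic aminoacyl-tRNA synthetases -0.25 and -0.06. The 2 eIF4E-binding proteins had -0.13 and 0.06. The medians of eIF3, eIF4, eIF2, eIF2B and the release factors thus lay between those of the ribosomal proteins and of all genes, whereas those of the eIF1 and eIF5 group and of the binding proteins lay at or above the all-gene median of -0.18. Per mouse, the centred eIF3 median was 3.02, 2.93 and 3.14 in WT and 2.77, 2.76 and 2.73 in KO. That of eIF4 was 3.14, 3.12 and 3.16 against 2.98, 2.91 and 3.00. After centring, the mice of the 2 genotypes did not overlap in either group. As deposited the eIF4 medians overlapped, with KO4 above WT1, and the eIF3 medians did not. The eIF2B medians (1.58, 1.22 and 1.45 against 1.40, 1.51 and 1.54) and eIF2 medians (2.61, 2.50 and 2.61 against 2.75, 2.40 and 2.35) overlapped, and for eIF2B the mean of the mouse medians was higher in KO (1.48 against 1.42) although the median difference was negative. These are descriptions of lists chosen with results known, and the differences between groups were not tested.

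**Figure D2:**
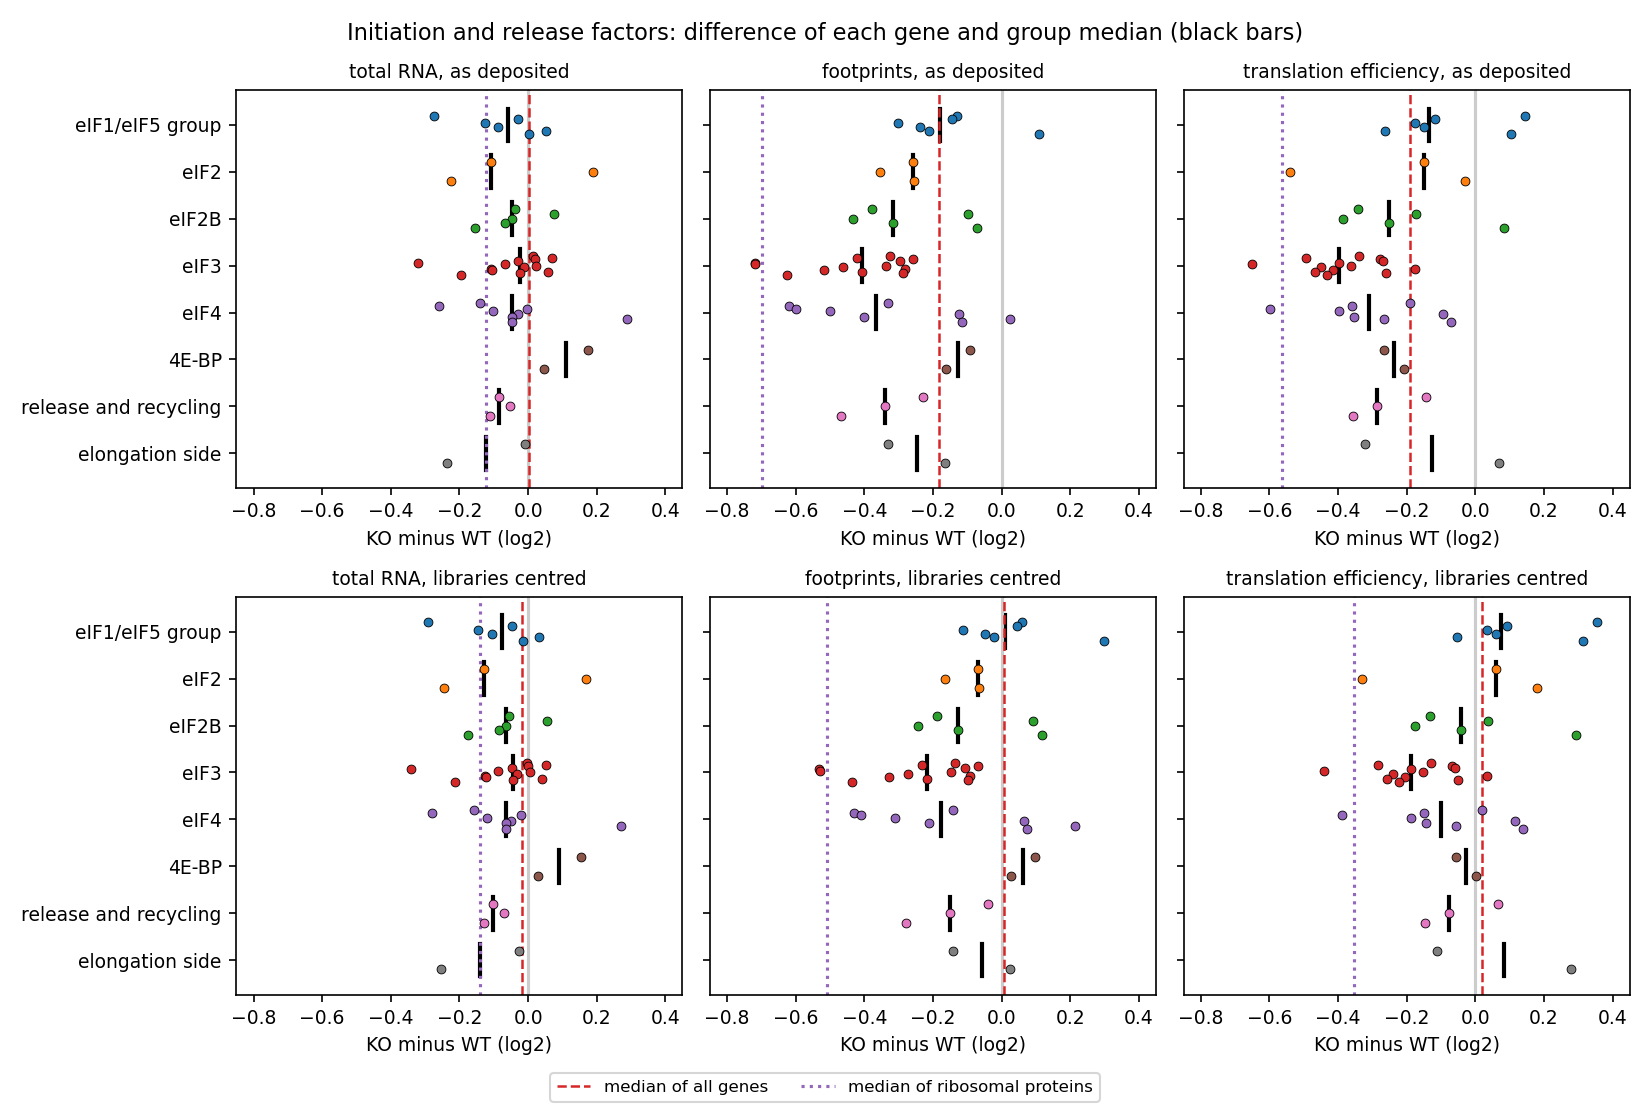
KO minus WT difference (log2) of each of the 42 genes in total RNA, footprints and TE, as deposited (top) and with libraries centred (bottom). Points are genes, black bars the group medians, and broken lines the medians of all genes and of 80 ribosomal protein genes; all 13 eIF3 points lie left of the all-gene line in footprints on both scales.

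**Figure D3:**
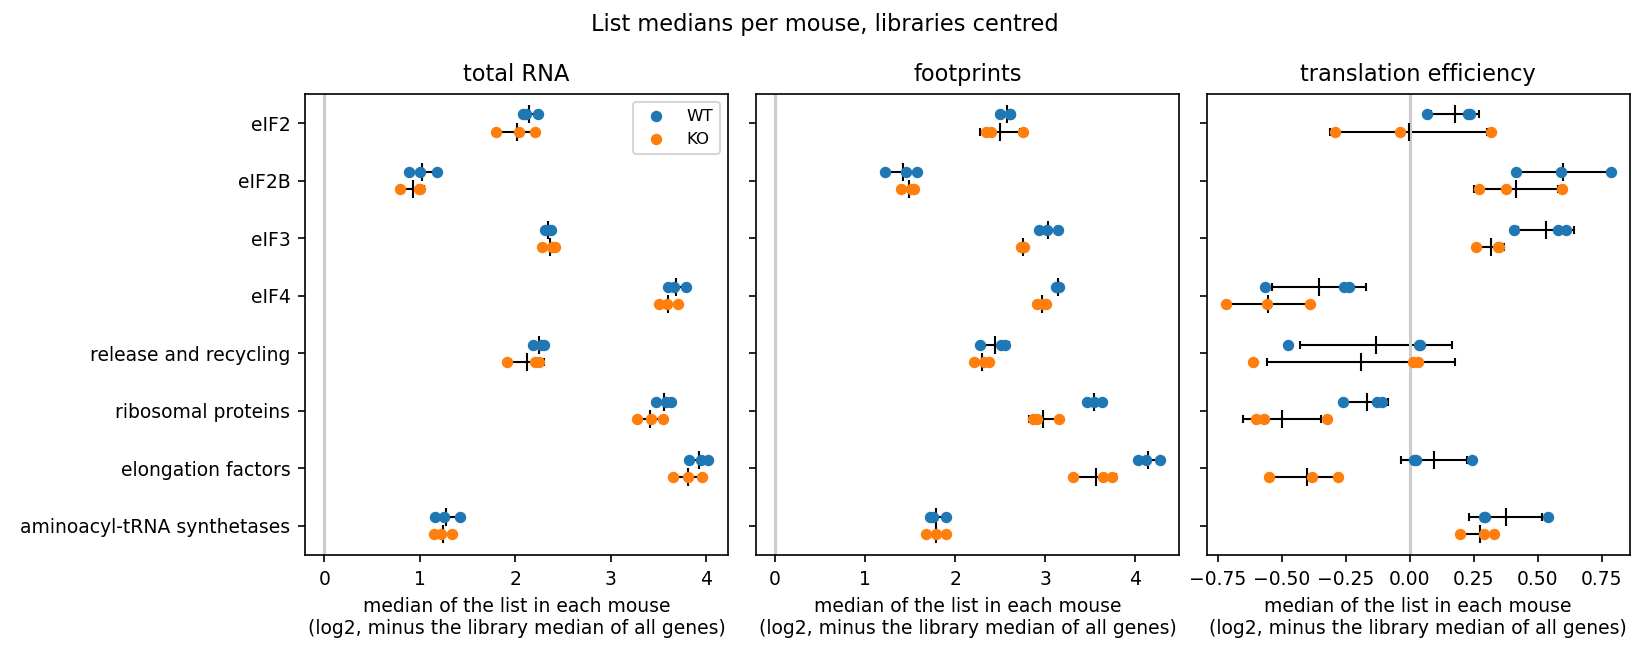
Median of each list in each mouse (log2, minus the library median), with the mean and SD of 3 mice. In footprints the WT and KO mice are separate for eIF3 and eIF4, as for ribosomal proteins and elongation factors, and overlap for eIF2, eIF2B, the release factors and the synthetases.

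Among the eIF3 subunits, Eif3f, a subunit that budding yeast lacks, had the widest gap between the genotypes of all members in centred footprints, 0.25 units between the nearest mice. Its centred footprint scores were 3.02, 3.24 and 3.34 in WT and 2.77, 2.75 and 2.49 in KO. The genotypes did not overlap, and the difference was -0.72 ± 0.36 as deposited and -0.53 ± 0.16 centred (adjusted p in limma 1.00 on both scales). This corresponds to footprints 39.3% and 30.8% lower in KO, and neither value passes the correction over all genes. Eif3m, another subunit that budding yeast lacks, had 2.85, 2.93 and 2.98 in WT and 2.63, 2.51 and 2.31 in KO. The mice again did not overlap, with differences of -0.63 ± 0.36 and -0.44 ± 0.15 centred. Eif3e, a subunit that binds Eif3d, had the lowest deposited difference, -0.72 ± 0.36, but its centred scores were 2.23, 2.77 and 3.14 in WT and 2.46, 2.17 and 1.91 in KO. WT1 lay among the KO mice, so the genotypes overlapped.

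Eif3h (2.94, 2.98 and 3.17 in WT and 2.66, 2.87 and 2.73 in KO) and the core subunit Eif3b (3.17, 2.77 and 2.88 in WT and 2.62, 2.76 and 2.75 in KO) did not overlap either after centring, with centred differences of -0.27 ± 0.15 and -0.23 ± 0.16. For Eif3b the gap between the nearest mice was 0.01 units. Eif3j, a loosely bound subunit, was separate only as deposited, with a difference of -0.52 ± 0.35, and had 2.57, 2.65 and 2.08 in WT and 2.18, 1.82 and 2.30 in KO centred. The smallest eIF3 difference was that of Eif3c (-0.26 ± 0.36, centred -0.07 ± 0.16), a core subunit with 3.44, 3.30 and 3.50 in WT and 3.43, 3.49 and 3.13 in KO, and Eif3a, the largest subunit, had -0.14 ± 0.20 centred. The centred differences of the subunits thus ran from -0.53 to -0.07, and whether the subunits differed from each other was not tested.

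In the eIF4 group, after centring, the KO mice lay below the WT mice for both helicases, for Eif4b and for Eif4e, and overlapped with them for the scaffolds. As deposited both helicases overlapped. Eif4b, which stimulates the helicase, had centred footprint scores of 3.15, 3.21 and 3.29 in WT and 2.96, 2.57 and 2.88 in KO, a difference of -0.60 ± 0.36 as deposited and -0.41 ± 0.16 centred. The mice did not overlap on either scale. The helicase Eif4a2 had 3.53, 3.89 and 3.88 in WT and 3.48, 3.37 and 3.15 in KO, a centred difference of -0.43 ± 0.17, and its nearest mice, WT1 and KO1, were 0.06 units apart. Its paralogue Eif4a1 had 4.86, 4.70 and 4.83 in WT and 4.64, 4.65 and 4.68 in KO, with a centred difference of -0.14 ± 0.15 and a gap of 0.0167 units between WT2 and KO4.

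Eif4e, the cap-binding protein, had 2.11, 2.30 and 2.19 in WT and 1.97, 1.90 and 1.79 in KO and a centred difference of -0.31 ± 0.15, without overlap on either scale. As deposited its nearest mice, WT1 and KO2, were only 0.0077 units apart. Eif4g1, which bridges eIF4E and eIF3, had 3.13, 3.02 and 3.03 in WT and 3.00, 3.24 and 3.12 in KO and a difference of 0.06 ± 0.15 with a 95% interval of -0.27 to 0.39, so the genotypes overlapped. The ratio of Eif4g1 to Eif4e footprints, in which any scaling of a library cancels, was 1.02, 0.72 and 0.84 log2 units in WT and 1.03, 1.34 and 1.33 in KO (exact two-sided permutation p = 0.1, the smallest that 3 against 3 mice can give, and adjusted p = 0.78 over 39 ratios). Eif4h (4.45, 4.49 and 4.52 in WT and 4.46, 4.65 and 4.56 in KO) and Eif4g3 (-0.23, -0.51 and -0.49 in WT and -0.25, -0.19 and -0.15 in KO) had KO means above the WT means after centring, by 0.07 and 0.21, and both overlapped.

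The eIF4E-binding proteins, which block cap-dependent initiation when unphosphorylated, overlapped between genotypes. Eif4ebp1 footprints were 2.50, 1.77 and 1.81 in WT and 1.87, 1.79 and 2.71 in KO, with WT1 and KO4 both high, and its difference was 0.10 ± 0.28. Eif4ebp2 had 2.18, 1.94 and 1.46 in WT and 2.05, 1.90 and 1.71 in KO and a difference of 0.03 ± 0.21.

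Neither eIF2 nor eIF2B showed a separation that held on both scales. The regulatory subunit Eif2s1, whose phosphorylation lowers initiation, had centred footprint scores of 2.61, 2.50 and 2.61 in WT and 2.75, 2.40 and 2.35 in KO and a difference of -0.07 ± 0.16. It was separate only as deposited, by 0.0037 units between WT2 and KO2. Eif2s2 had 2.97, 3.15 and 3.28 in WT and 2.93, 3.02 and 2.95 in KO and Eif2s3x, the GTP-binding subunit, had 1.10, 1.44 and 2.09 in WT and 1.66, 1.57 and 1.21 in KO, both with overlap. Of the exchange factor, Eif2b3 had the lowest difference (-0.43 ± 0.35, centred -0.24 ± 0.16) and its centred scores of 0.61, 0.59 and 0.81 in WT and 0.49, 0.28 and 0.50 in KO did not overlap. The catalytic subunit Eif2b5 had 0.86, 0.63 and 0.55 in WT and 0.75, 0.63 and 1.01 in KO and a difference of 0.12 ± 0.17.

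The release factor eRF1, encoded by Etf1, had 2.27, 2.89 and 2.92 in WT and 2.70, 2.89 and 2.38 in KO and a centred difference of -0.04 ± 0.22. Its partner eRF3, encoded by Gspt1, had -0.15 ± 0.16. The recycling factor Abce1 had 1.91, 2.44 and 2.51 in WT and 2.09, 2.32 and 1.61 in KO and -0.28 ± 0.23, with KO4 lowest and WT1 among the KO mice, so that all 3 genes overlapped. On the elongation side, Eif5a had 5.92, 5.99 and 5.99 in WT and 5.83, 5.65 and 5.99 in KO and Eef2k -0.27, -1.09 and -1.05 in WT and -0.67, -0.90 and -0.77 in KO, both with overlap.

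In the eIF1 and eIF5 group, Eif6, which keeps the large subunit from joining too early, was the only member with all KO mice above all WT mice in centred footprints. Its scores were 3.00, 3.02 and 3.04 in WT and 3.20, 3.15 and 3.61 in KO, and the difference was 0.30 ± 0.17 centred and 0.11 ± 0.36 as deposited. KO4 lay furthest from the WT mice. Eif1 (2.64, 3.60 and 3.28 in WT and 2.95, 2.93 and 3.82 in KO) and Eif1b (2.06, 2.64 and 2.41 in WT and 2.32, 2.06 and 2.39 in KO) overlapped.

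**Figure D4:**
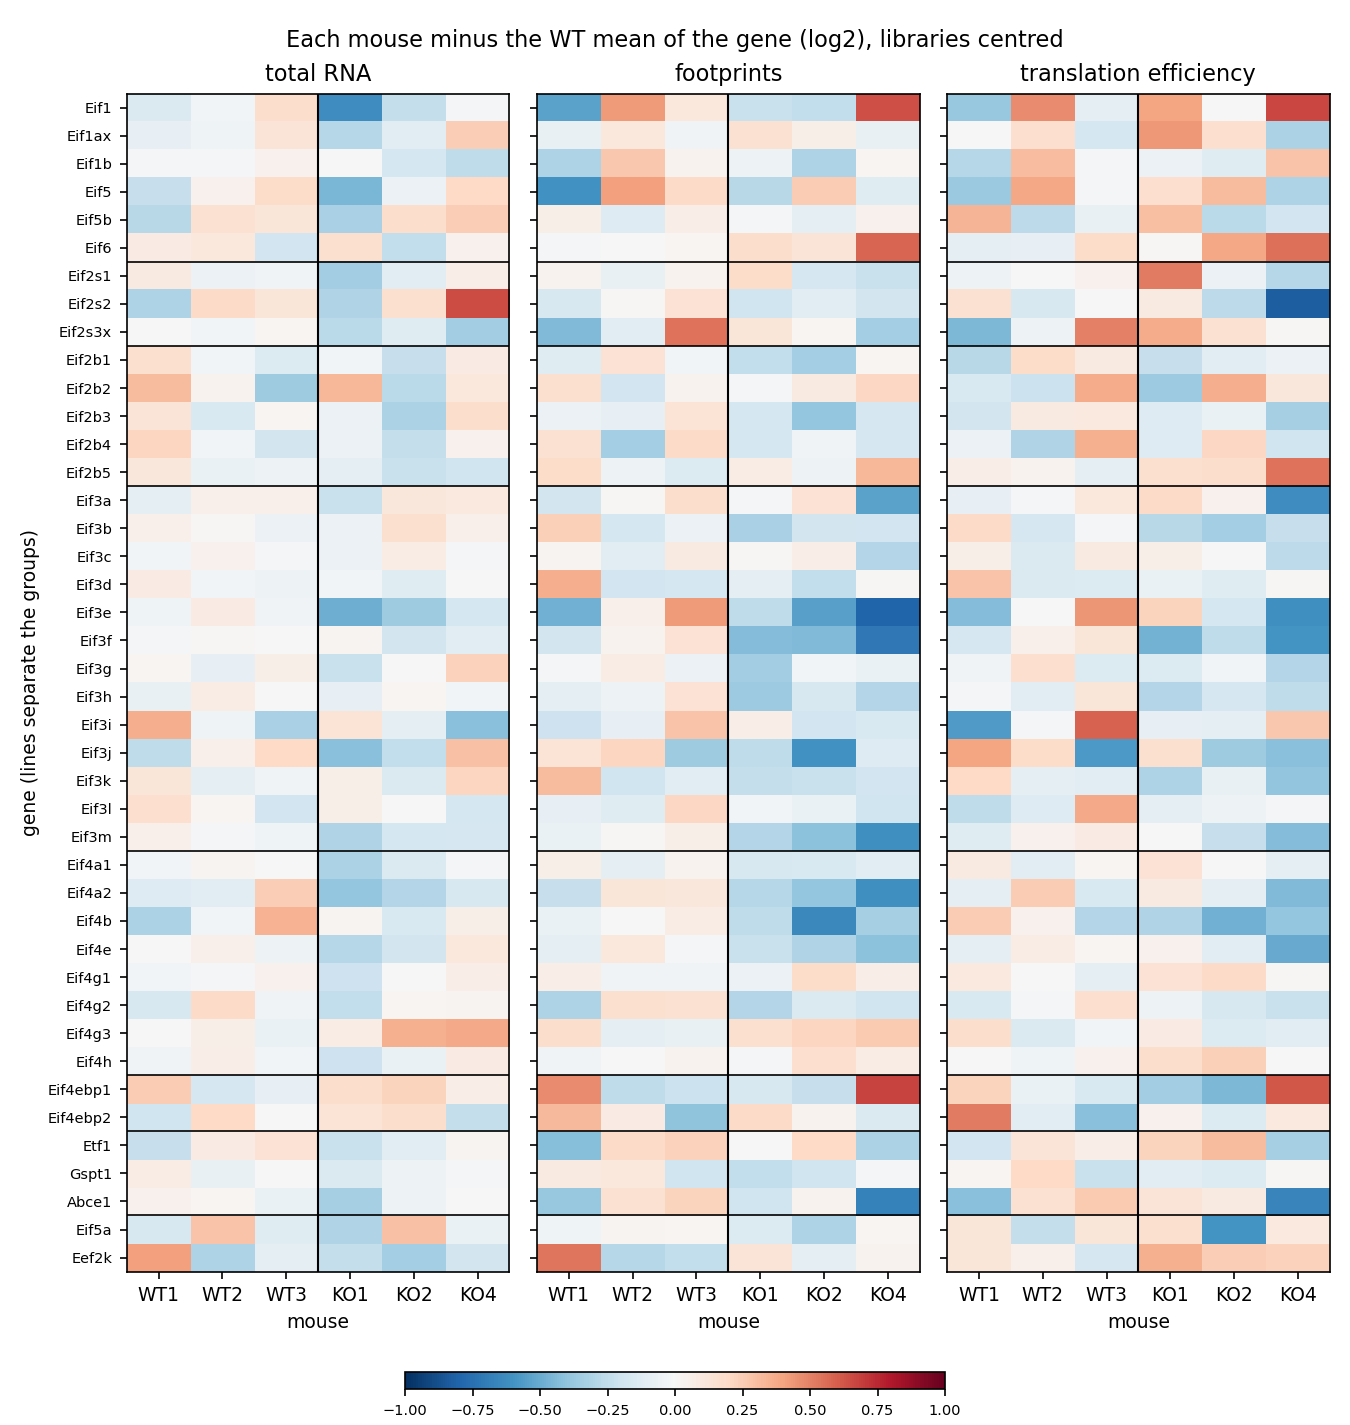
Centred value of each gene in each mouse minus its WT mean (log2), for total RNA, footprints and TE, with lines between the groups. Blue is lower and red higher than the WT mean; Eif3f, Eif3m, Eif4a2, Eif4b and Eif4e are blue in all 3 KO footprint columns, and Eif6 is red.

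The third comparison asked whether ribosome occupancy changed relative to the mRNA. In TE 0 of 42 members passed in limma, against 2 of 11587 genes (0.0173%), and none had an unadjusted p under 0.05, against 1.03% of genes. As deposited 38 of 42 differences lay below 0, against 80.2% of genes, with medians of -0.27 for the members and -0.19 for all genes. As for footprints, the direction rested on KO1 and WT3, since the member median was 0.0087 without WT3 alone, and without both mice 3 of 42 lay below 0 and the medians were 0.23 and 0.40. With libraries centred 0 members passed, against 0.0% of genes, the medians were -0.06 and 0.02, 26 of 42 lay below 0, against 46.5% of genes, and 1 member had an unadjusted limma p under 0.05 (Eif3f, 0.042), against 3.0% of genes. Relative to the median of all genes, 28 of 42 members were lower on both scales, and 30 of 42 without KO1 and WT3. Footprints and TE share libraries, so these counts are not independent of those above.

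By group, 12 of 13 eIF3 subunits lay below the median TE difference of all genes (group median -0.40 as deposited and -0.19 centred), as did 6 of 8 eIF4 factors (-0.31 and -0.10), 2 of 3 release and recycling factors (-0.29 and -0.08), 3 of 5 eIF2B subunits (-0.25 and -0.04), 1 of 3 eIF2 subunits (-0.15 and 0.06) and 1 of 6 genes of the eIF1 and eIF5 group (-0.13 and 0.08). Ribosomal proteins had -0.56 and -0.35. In centred TE the KO mice lay below the WT mice in 4 of 42 members (Eif3b, Eif3f, Eif3h and Eif4b), against 3.56% of genes, and above them in 2 (Eif2b5 and Eef2k), against 3.8%. As deposited these counts were 2 (Eif3j and Eif4b), against 2.09%, and 0, against 0.0949%. As shares of the 42 members, these counts were 9.52% and 4.76% centred and 4.76% and 0% as deposited.

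Eif3f had the lowest TE difference, -0.65 ± 0.55 as deposited and -0.44 ± 0.18 centred. Its centred TE was 0.31, 0.52 and 0.59 in WT and 0.00, 0.22 and -0.13 in KO, and total RNA differed by only -0.09 ± 0.11. Eif4b behaved alike, with -0.13, -0.34 and -0.68 in WT and -0.68, -0.86 and -0.77 in KO, differences of -0.60 ± 0.51 and -0.39 ± 0.21, and a total RNA difference of -0.02 ± 0.16. The nearest mice of Eif4b, WT3 and KO1, were 0.0024 units apart. Eif3e, with a total RNA difference of -0.34 ± 0.12, and Eif4a2, with -0.28 ± 0.14, had centred TE differences of -0.19 ± 0.29 and -0.15 ± 0.22, and their mice overlapped in TE. These 2 genes had negative differences in total RNA and in footprints alike.

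Eif3b (0.61, 0.25 and 0.40 in WT and 0.14, 0.08 and 0.18 in KO) and Eif3h (0.50, 0.41 and 0.64 in WT and 0.22, 0.35 and 0.26 in KO) were the other members with lower TE in all KO mice. Eif2b5 had -0.59, -0.63 and -0.76 in WT and -0.50, -0.48 and -0.12 in KO and Eef2k -0.08, -0.15 and -0.37 in WT and 0.16, 0.05 and 0.03 in KO, each higher in all KO mice, with centred differences of 0.29 ± 0.20 and 0.28 ± 0.18. For Eif2b5 the nearest mice, WT1 and KO1, were 0.09 units apart. As deposited both genes overlapped.

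At the other members with the lowest or highest TE differences of their groups the mice overlapped. Eif1 had the highest, 0.14 ± 0.51 as deposited, from centred values of -1.46, -0.61 and -1.17 in WT and -0.69, -1.08 and -0.41 in KO. Eif2s2 had 0.38, 0.07 and 0.23 in WT and 0.32, -0.04 and -0.60 in KO, with KO4 lowest and a difference of -0.33 ± 0.25. Centred differences were -0.05 ± 0.24 for Eif5b, 0.18 ± 0.26 for Eif2s3x, -0.18 ± 0.18 for Eif2b3, 0.03 ± 0.33 for Eif3i, 0.14 ± 0.18 for Eif4h, -0.06 ± 0.29 for Eif4ebp1, 0.07 ± 0.23 for Etf1, -0.15 ± 0.28 for Abce1 and -0.11 ± 0.26 for Eif5a.

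**Figure D5:**
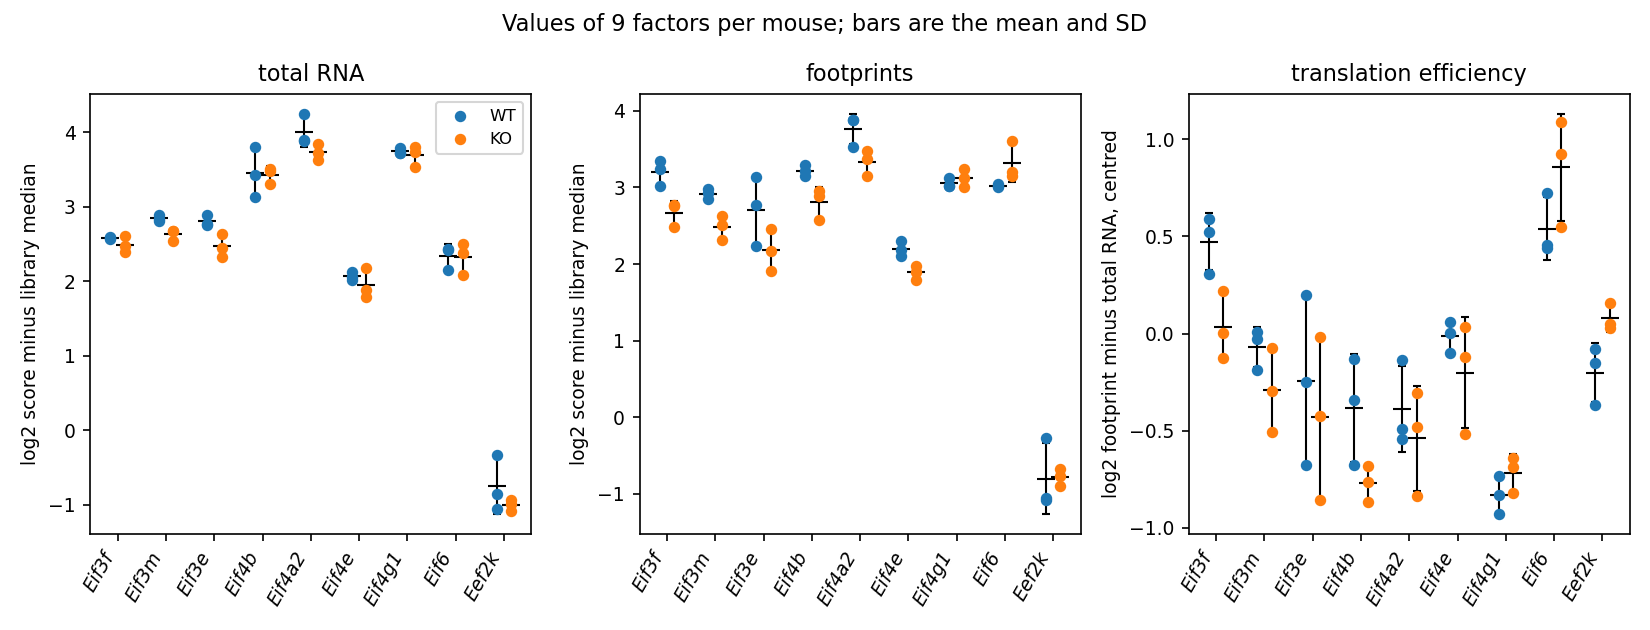
Centred values per mouse of 9 factors in total RNA, footprints and TE, with the mean and SD of 3 mice. Eif3f, Eif3m, Eif4b, Eif4a2 and Eif4e are separate between genotypes in footprints, whereas Eif4g1 overlaps in all 3 panels and Eif6 and Eef2k are higher in KO in footprints and in TE, respectively.

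With runs counted within 10 bases, members with and without a TOP-like start had similar medians. The median TE difference was -0.26 for the 9 members with such a run within 10 bases and -0.27 for the 24 without, and in footprints -0.29 and -0.31. Eif3f and Eif4b hold a run and had the 2 lowest TE differences (-0.65 ± 0.55 and -0.60 ± 0.51). Eif2b5 and Eif2s3x, with runs printed above, had 0.08 ± 0.52 and -0.03 ± 0.52 in TE. Eif3m, with none in this window, had -0.43 ± 0.53 in TE. With the run within 2 bases the TE medians were -0.06 for 4 members and -0.27 for 29, so the gap between the 2 sets depended on the window. Eif3e, Eif3h, Eif3i, Eif3j, Eif4g2, Eif4ebp1, Eif2b3, Eif6 and Etf1 had no entry.

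The transcripts of a gene mostly gave similar differences. Of 22 members with several transcripts, 2 (Eif5a and Eef2k) had identical values in all of them. Of the other 20, 14 had footprint differences within 0.1 units of each other, and 2 differed by 0.3 or more, Eif1ax and Eif4g3. The 2 transcripts of Eif1ax differed by 5.28 units in WT total RNA and had footprint differences of -0.58 (the abundant one) and 0.29. Its gene value, -0.14 ± 0.35, therefore averages 2 unlike rows. The 9 transcripts of Eif4g3 ran from -0.28 to 0.25. With the most abundant transcript in place of the mean, 40 of 42 members remained below 0 in footprints and 38 of 42 in TE.

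Other genes of the pathway were taken from 5 lists with 48 of 51 genes measured, and none passed in any measure as deposited or centred. In footprints 35 of 48 lay below the median of all genes, and their median difference was -0.24, or -0.05 centred, and 3 of 48 had an unadjusted limma p under 0.05 as deposited, against 2.49% of genes. The lowest was Pabpc1, the poly(A)-binding protein that joins the mRNA tail to eIF4G, with centred footprints of 3.01, 2.92 and 2.74 in WT and 2.47, 1.52 and 2.74 in KO and a deposited difference of -0.83 ± 0.36. It shared the list of cap, poly(A) and mTORC1 side regulators with Paip2, an inhibitor of Pabpc1, at 4.004, 3.82 and 3.93 in WT and 3.28, 3.34 and 3.60 in KO, whose mice did not overlap. Mcts1, which with Denr forms a factor for reinitiation, had the lowest value among the other initiation factors (-0.73 ± 0.35), whereas Denr had the highest, 0.09 ± 0.35. The lists of eIF2 kinases and phosphatase subunits, of rescue and hypusine enzymes and of mitochondrial factors had centred medians of -0.01, -0.13 and -0.04. Their lowest members were Impact (-0.40), a partner of the kinase GCN2, Dohh (-0.42), which completes the hypusine of eIF5A, and Mtrf1l (-0.38), a mitochondrial release factor, all as deposited.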

How the data were processed

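Liver ribosome footprints and total RNA of 6 mice were profiled with a TruSeq Ribo Profile kit. According to the methods and the submitters' processing notes (mm9, dm6, BDGP6, edgeR), the authors aligned tags to mouse coding sequences, removed tags shared with Drosophila and ribosomal RNA, normalized to total tags with TMM, applied a Drosophila correction and deposited log2 scores per transcript. Total tag counts per library are not given in the sources used here. Scores were averaged per gene, and KO and WT were compared in limma 3.58.1 (R 4.3.3) with an intensity trend over all 11587 genes and Benjamini-Hochberg adjustment (called: adjusted p under 0.05), with no filter. The rows behaved as values per coding length in 8 of the 12 libraries, so the planned subtraction of log2 coding length was not applied. Errors are SD over mice for levels and SE from limma for differences. Single ratios were compared by exact two-sided permutation tests. Scripts were tested on simulated data.

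The members and lists were chosen with earlier results of these data known. Named genes were the lowest and highest differences of each group in footprints and TE, members whose mice did not overlap, the extreme WT levels, and Eif4g1; other names were chosen after their values were seen. Values per mouse, intervals and SE treat the 3 mice of a genotype as replicates. Alternatives were centring, quantile normalization, low genes left out, the most abundant transcript, other limma priors, a replicate block, an interaction model and leaving out mice. Replicate numbers did not pair the mice.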

Additional observations from a re-analysis of the deposited data

How the results depend on the processing

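No member passed the test under the settings run, which says little about stability where the errors are as large as in deposited footprints and TE. Directions as deposited did turn, since 38 of 42 members lay below 0 in TE with all mice and 3 without KO1 and WT3. The number of genes called among all 11587 was unstable. In total RNA (32) it was 2 with libraries centred, 2 after quantile normalization, 21 with low genes left out, 9 with a replicate block, 53 with centring and a replicate block, 0 without KO1 and WT3 as deposited or centred, and 0 to 30 when 1 mouse was left out. In footprints (10) the same settings gave 0, 0, 4, 292, 429, 0 and 0, a common prior gave 20, a robust fit 4, and leaving out 1 mouse 0 to 53. In TE (2) centring, quantile normalization, low genes left out, centring with the block and leaving out KO1 and WT3 gave 0, a common prior 9, a robust fit 1, the interaction model 1, a threshold of 0.1 gave 6, and leaving out 1 mouse 0 to 5. The cause was not tested.

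Without KO1 and WT3 (chosen for their library medians) the median difference in total RNA was -0.26 for all members, -0.42 for eIF2B, -0.24 for eIF3 and -0.26 for the release factors. In footprints it was 0.033 for all members, 0.069 for eIF2, 0.13 for eIF2B, -0.062 for eIF3 (-0.41 with all mice) and 0.039 for eIF4, and in TE 0.23 for all members, 0.56 for eIF2B, 0.15 for eIF3 and 0.25 for eIF4. The eIF2 footprint median was 0.024 with centring and the replicate block, and when 1 mouse was left out -0.56 to -0.042 as deposited and -0.24 to 0.0067 centred. Signs of single members changed in 22 of 42 (footprints), 35 (TE) and 9 (total RNA) without KO1 and WT3, in 9, 12 and 2 with centring, and in 12, 10 and 8 after quantile normalization. With the replicate block, which could use only numbers 1 and 2, 27 of 42 members (9 of 13 eIF3 subunits) lay below the all-gene median in footprints and 22 of 42 in TE. Same-numbered mice had correlations of 0.234 and 0.27 in total RNA, -0.0607 and 0.0966 in footprints and -0.101 and 0.0977 in TE, so the numbers were not taken as pairs.

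The planned comparison of longest and median coding length was not run, and no count test was run on the log2 scores.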
